A study of Mus musculus with 10 samples.

Results

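The genes described here encode the T cell receptor complex and the proteins that act directly behind it in mouse CD8+ T cells. They are 39 genes of the 57010 in the table, chosen by symbol, and each symbol matched 1 row. All 39 were among the 18966 genes that passed a filter on low counts and were tested. By role they are 4 receptor chains of the CD3 complex, the receptor-associated adaptor Trat1, the 2 chains of the CD8 coreceptor, the scavenger-family receptors Cd5 and Cd6, 4 kinases, 5 genes that control those kinases, 8 adaptors, 7 effector enzymes and signal carriers, and 6 negative regulators.

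Spleens of 5 mice were the source of the CD8+ T cells, and bulk RNA of each mouse was sequenced in a pair of libraries. In 1 library the cells had met beads coated with antibodies to CD3 and CD28 for 24 h (activated), and in the other they had spent the same 24 h without beads (rested). The first group, Dusp2fl/fl-E8I-cre+/- and called cKO, held 3 mice, of which mice 1 and 2 were male and mouse 3 female. The other group, Dusp2fl/fl-E8I-cre-/- and called control, held 2 mice, of which mouse 1 was male and mouse 2 female. The title of the study asks about DUSP2, which dephosphorylates MAP kinases, and the effector programme of CD8+ T cells. Both groups carried the floxed Dusp2 allele, and cre was carried by cKO mice only, so loss of Dusp2 and presence of cre cannot be told apart. E8I-cre is driven by an enhancer of the Cd8 locus that is active in mature CD8+ T cells. The titles of both cKO mouse 3 libraries conflict with their other labels. By its title the library taken here as activated cKO is rested cKO, and the one taken as rested cKO is activated control. Their group here follows the treatment and genotype labels and the library name.

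The T cell receptor has no enzyme activity of its own. When its αβ chains meet antigen, the kinase LCK, held near the receptor by CD8, phosphorylates the CD3 and ζ tails, the kinase ZAP70 docks on them, and ZAP70 phosphorylates the adaptors LAT and SLP-76, on which phospholipase C-γ1 and activators of RAS and of NF-κB assemble. Phosphatases, ubiquitin ligases and diacylglycerol kinases hold the signal down, and the anti-CD3 and anti-CD28 antibodies on the beads engage this machinery without antigen.

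The libraries held 51203786 to 65135435 counts, so that 3 counts corresponded to between 0.0461 and 0.0586 CPM, and no member was near that floor. Levels are given as CPM, a count scaled to the size and composition of its library, with n = 3 cKO and n = 2 control mice and SD as the error. A rise or fall below is therefore relative to the other genes of the library, and amounts per cell cannot be read from it. Dusp2 itself had 56.3, 46.4 and 52.6 CPM in activated cKO libraries, against 292 and 299 CPM in activated control libraries. At rest it had 25.0, 24.8 and 28.1 CPM in cKO libraries, against 87.8 and 97.4 CPM in control libraries, so each cKO library, mouse 3 included, lay below each control library. Markers of other lineages were low beside the 6 CD8 T cell markers, which are members themselves and summed to between 1802 and 2619 CPM in each library. The macrophage marker C1qb was at 0 in all 10 libraries, Cd4 reached at most 1.22 CPM and Foxp3 at most 0.885 CPM. Other genes on the same marker lists were higher. Cd68 of the myeloid list reached 15.6 CPM, and of the CD4 and regulatory T cell list Ctla4 reached 50.1, Zbtb7b 31.9 and Ikzf2 13.1 CPM. In bulk RNA, fewer cells of a type and less RNA per cell cannot be told apart.

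Levels of different genes were compared on the FPKM scale, which divides by gene length. In rested cells the coreceptor chain Cd8b1 was highest with 416 ± 15.7 FPKM over 5 libraries, then the diacylglycerol kinase Dgka with 333 ± 10.8 FPKM, Lck with 277 ± 6.22 FPKM and the adaptor Grap2 with 191 ± 8.19 FPKM. Lowest at rest were Sh3bp2 with 1.31 ± 0.194 FPKM, Trat1 with 2.34 ± 0.297 FPKM and Ubash3b with 2.37 ± 0.293 FPKM. The last pair overlapped in their ranges, while every Sh3bp2 value lay below both. After activation Cd8b1 stayed at the top with 268 ± 9.70 FPKM, followed by Lck with 197 ± 9.57 FPKM and Cd8a with 155 ± 10.2 FPKM. Dgka, at 141 ± 16.5 FPKM, and Cd3d, at 138 ± 11.7 FPKM, were next and did not differ beyond their spread. Sh3bp2 stood at rank 39 of 39 in rested and at rank 28 in activated cells, where it had 24.3 ± 1.21 FPKM. Together the members took 1.23 to 1.25% of all counts in activated libraries and 1.42 to 1.46% in rested libraries. The plot of activated against rested levels shows these orders.

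**Figure D1:**
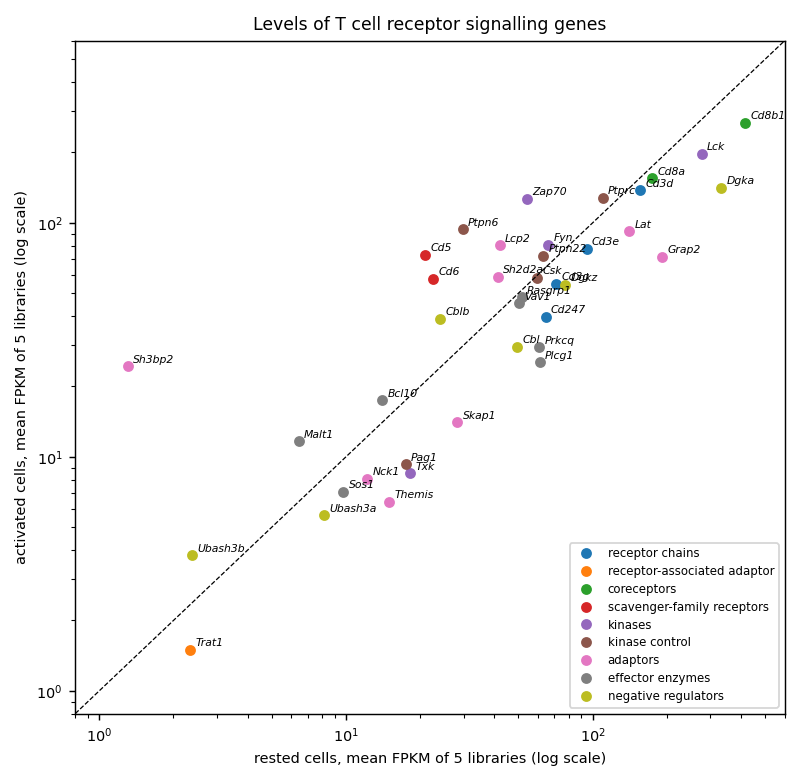
Mean FPKM of each of the 39 genes over 5 activated libraries (vertical, log scale) against the mean over 5 rested libraries (horizontal, log scale), coloured by role, with a dashed line of equal level. Sh3bp2 lies farthest above the line, at 24.3 FPKM activated and 1.31 FPKM rested, and Grap2, Dgka, Plcg1 and Themis are among the genes below it.

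Activation changed most of these genes, and more of them fell than rose. In cKO cells 12 of 39 were higher and 24 lower after activation, and in control cells 14 were higher and 23 lower, at an adjusted p below 0.05 by the quasi-likelihood test of edgeR, with Benjamini-Hochberg adjustment over every gene tested. The members called were 92.3% in cKO and 94.9% in control cells, while of all genes tested 63.4% were called in cKO and 56.1% in control cells (31.5% higher and 31.9% lower in cKO, 28.5% higher and 27.6% lower in control). The members are abundant genes, with a median of 271 CPM over all libraries against 8.26 CPM for all genes tested, and the part of abundance in these shares was not tested. The same 12 genes rose in both genotypes (Cd5, Cd6, Fyn, Zap70, Ptpn6, Lcp2, Sh2d2a, Sh3bp2, Bcl10, Malt1, Ubash3b and Cblb), and the same 23 fell in both. Of the remaining 4, the phosphatase genes Ptprc and Ptpn22 were called higher in control cells only, the RAS activator Rasgrp1 was called lower in cKO cells only, and the kinase gene Csk was called in neither, and for none of them did the test of the difference between the genotypes' responses, given further on, pass.

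The median member had a log2 fold change of -0.37 in cKO and -0.32 in control cells, against -0.0079 in cKO and -0.0023 in control cells for all genes tested. Past a 2-fold change, 5 members were higher and 8 lower in cKO cells, and 5 higher and 7 lower in control cells. The share of all genes past that change was not counted. Members had a median absolute log2 fold change of 0.67 in cKO and 0.72 in control cells. All genes tested had 0.58 in cKO and 0.56 in control cells. Activated and rested libraries did not overlap for 35 members in cKO cells, where 66.9% of all genes had no overlap, and for 37 members in control cells, where 76.8% had none. In all 5 mice 14 members were higher and 24 lower in the activated library, and Csk alone was mixed. The share of all genes with the same direction in all 5 mice was not counted, so this describes the members only.

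Without control mouse 2 the counts in control cells were 8 higher and 19 lower, and the 10 genes no longer called were Cd3d, Trat1, Cd8a, Fyn, Ptprc, Ptpn22, Sh2d2a, Vav1, Bcl10 and Ubash3b, with adjusted p from 0.0572 (Fyn) to 0.470 (Ptprc). Without control mouse 1 the calls of Cd8a, Ptpn22, Vav1 and Bcl10 in control cells were lost (adjusted p from 0.0761 to 0.243), and without cKO mouse 3 that of Ptpn22 (0.0551). Without cKO mouse 3, whose labels conflict, 11 members were higher and 24 lower in cKO cells, with Sh2d2a (adjusted p = 0.0791) and Rasgrp1 (0.168) no longer called, and Csk then called lower (0.0466). Leaving out either control mouse also lowered the number of all genes called in control cells, in fits that keep a lone control mouse. Markers of other cell types moved with activation too. The 8 B cell genes summed to 3.38 to 3.60 CPM in activated and 5.38 to 6.64 CPM in rested libraries, the 10 myeloid genes, mostly Cd68, to 13.3 to 17.3 CPM in activated and 9.25 to 13.1 CPM in rested libraries, and the 4 gamma delta T cell genes in the table to 5.81 to 6.60 CPM in activated and 9.84 to 11.9 CPM in rested libraries. The 6 genes of CD4 and regulatory T cells summed to 61.2 to 93.8 CPM in activated and 18.9 to 28.2 CPM in rested libraries, most of it from Ctla4 and Zbtb7b after activation. The part of these cells in the results was not tested. The plot of fold changes by role shows the 2 genotypes side by side for each gene.

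**Figure D2:**
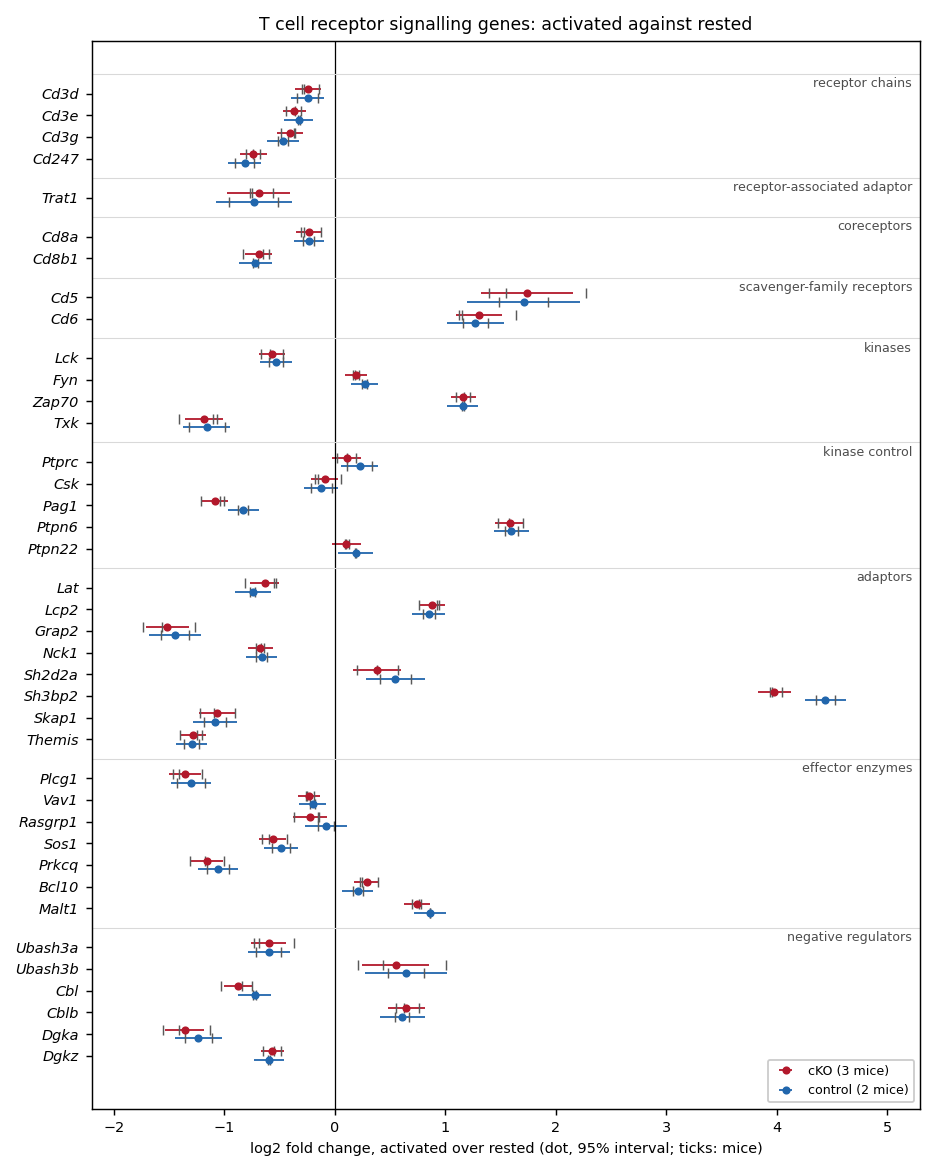
Log2 fold change of activated over rested cells for each gene (horizontal), grouped by role, with the fitted value and its 95% interval for cKO mice (red) above control mice (blue) and a tick for each mouse. Sh3bp2 stands far to the right at 3.98 in cKO and 4.44 in control cells, and the other genes lie between -1.51 and 1.74.

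The 4 CD3-complex chains all fell with activation in both genotypes. The largest fall was in Cd247, the ζ chain, whose long cytoplasmic tail carries most of the receptor's ZAP70 docking motifs. Cd247 (chr1:165616250-165704846 in mm39) had 199, 217 and 206 CPM in the activated cKO libraries, against 331, 345 and 359 CPM in the rested cKO libraries. It had 206 and 204 CPM in activated control libraries, against 341 and 382 CPM in rested control libraries. Every activated library was below every rested library, and the log2 fold change was -0.74 in cKO cells (SE 0.056, adjusted p = 7.39e-08) and -0.82 in control cells (SE 0.068, adjusted p = 3.68e-07). Reads of the opposite-strand gene Pou2f1, which overlaps Cd247 and had 38.1% of its mean count, cannot be told apart from it if counting ignored strand.

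Cd3g, the γ chain (chr9:44880870-44891729), had 169, 187 and 170.1 CPM in the activated cKO libraries, against 237, 239 and 219 CPM in the rested cKO libraries. Control mice gave the same picture, with 179 and 175 CPM in activated control libraries, against 240.4 and 249.7 CPM in rested control libraries. The groups were apart in both genotypes, with log2 fold changes of -0.40 in cKO cells (SE 0.054, adjusted p = 1.92e-05) and -0.47 in control cells (SE 0.066, adjusted p = 4.26e-05). Cd3e, the ε chain, averaged 306 ± 14.9 CPM in activated and 395 ± 9.75 CPM in rested cKO cells, a log2 fold change of -0.37, with -0.32 in control cells. Cd3d, the δ chain, showed the smallest log2 fold change of the 4, -0.24 in cKO and -0.24 in control cells. The 3 genes lie together on chromosome 9, Cd3g and Cd3d 1.35 kb apart and read in opposite directions, and Cd3e 11.4 kb beyond Cd3d. From the wider list of pathway genes, chosen here after its values were seen, Trac, the constant segment of the receptor's own α chain, rose, with a log2 fold change of 0.80 in cKO cells (SE 0.048, adjusted p = 8.47e-09) and 0.80 in control cells (SE 0.058, adjusted p = 1.21e-07). Of the β-chain segments, Trbc1 had 0.11 in cKO and 0.017 in control cells and was called in neither, and Trbc2 had -0.11 in cKO cells, not called, and -0.24 in control cells, called lower.

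Trat1 encodes TRIM, a small transmembrane adaptor that pairs with the ζ chain, and it had the lowest mean CPM of the members over all 10 libraries, although Sh3bp2 was lower in every rested library. Trat1 had 5.45, 7.24 and 6.83 CPM in the activated cKO libraries, against 9.15, 10.6 and 11.6 CPM in the rested cKO libraries. It stood at 7.98 and 6.65 CPM in activated control libraries, against 11.4 and 12.9 CPM in rested control libraries. All activated libraries were below all rested ones, with a log2 fold change of -0.69 in cKO cells (SE 0.13, adjusted p = 4.42e-04) and -0.73 in control cells (SE 0.16, adjusted p = 0.00155).

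The CD8 coreceptor brings LCK to the receptor, and both of its chains fell. Cd8b1, the β chain (chr6:71299772-71314478), had 367, 404 and 395 CPM in the activated cKO libraries, against 651, 633 and 596 CPM in the rested cKO libraries. In control mice it had 382 and 395 CPM in activated control libraries, against 619 and 659 CPM in rested control libraries. The groups were well apart, and the log2 fold change was -0.69 in cKO cells (SE 0.057, adjusted p = 1.80e-07) and -0.72 in control cells (SE 0.07, adjusted p = 1.45e-06). Cd8a, the α chain, had 525, 539 and 604 CPM in the activated cKO libraries, against 648, 654 and 659 CPM in the rested cKO libraries. Its control values were 512 and 577 CPM in activated control libraries, against 624 and 655 CPM in rested control libraries. Here the gap was narrow, 604 CPM in the highest activated cKO library against 648 CPM in the lowest rested one, and the log2 fold change was -0.24 in cKO cells (SE 0.052, adjusted p = 0.00129) and -0.23 in control cells (SE 0.064, adjusted p = 0.00656). The genes sit 35.9 kb apart on chromosome 6, in the locus whose enhancer drives the cre transgene. Between genotypes Cd8a differed by a log2 fold change of 0.049 in activated cells (95% interval -0.077 to 0.18) and 0.051 in rested cells (95% interval -0.076 to 0.18), and Cd8b1 by 0.0034 in activated and -0.026 in rested cells.

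Both scavenger-family receptors rose. CD5 is a surface receptor that restrains signalling from the T cell receptor, and Cd5 had 328, 315 and 466 CPM in the activated cKO libraries, against 125, 108 and 96.2 CPM in the rested cKO libraries. Among controls it had 287 and 369 CPM in activated control libraries, against 102 and 96.7 CPM in rested control libraries. Activated libraries were all above rested ones, highest in cKO mouse 3 and, among controls, in mouse 2, the 2 females. The log2 fold change was 1.74 in cKO cells (SE 0.18, adjusted p = 7.74e-05) and 1.71 in control cells (SE 0.21, adjusted p = 3.46e-04), and over the 5 mice it ran from 1.40 to 2.28. Cd6, whose product is a close relative that binds the adhesion molecule ALCAM, had 464, 429 and 533 CPM in the activated cKO libraries, against 212, 193 and 171 CPM in the rested cKO libraries. It had 385 and 439 CPM in activated control libraries, against 173 and 168 CPM in rested control libraries. Again no libraries overlapped between the states, with log2 fold changes of 1.30 in cKO cells (SE 0.095, adjusted p = 3.11e-07) and 1.27 in control cells (SE 0.12, adjusted p = 3.32e-06). The 2 genes are neighbours on chromosome 19, 50.3 kb apart and on the same strand.

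Of the 4 kinases, Zap70 and Fyn rose and Lck and Txk fell. Zap70, the kinase that docks on the phosphorylated receptor tails (chr1:36800879-36821899), had 378, 346 and 381 CPM in the activated cKO libraries, against 168, 162 and 163 CPM in the rested cKO libraries. It had 358 and 387 CPM in activated control libraries, against 162 and 172 CPM in rested control libraries. Its libraries within a state lay close together and the states were far apart, with a log2 fold change of 1.16 in cKO cells (SE 0.053, adjusted p = 9.10e-10) and 1.16 in control cells (SE 0.065, adjusted p = 1.31e-08). Txk, a TEC-family kinase also called RLK, had 103, 98.9 and 71.4 CPM in the activated cKO libraries, against 221, 207 and 189 CPM in the rested cKO libraries. In controls Txk had 102 and 79.7 CPM in activated control libraries, against 202 and 199 CPM in rested control libraries. The lowest activated values were those of cKO mouse 3 and control mouse 2, and the log2 fold change was -1.19 in cKO cells (SE 0.08, adjusted p = 4.60e-08) and -1.16 in control cells (SE 0.098, adjusted p = 6.50e-07). Lck, which starts the cascade, averaged 560.5 ± 33.6 CPM in activated and 832 ± 12.3 CPM in rested cKO cells, a log2 fold change of -0.57, with -0.53 in control cells. Fyn, the other SRC-family kinase of T cells, rose by 0.19 in cKO and 0.27 in control cells on the log2 scale.

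Among the 5 genes that set the activity of LCK and ZAP70, the largest rise was in Ptpn6, which encodes the phosphatase SHP-1. Ptpn6 (chr6:124697670-124715677) had 239, 249.8 and 281 CPM in the activated cKO libraries, against 80.4, 89.9 and 86.3 CPM in the rested cKO libraries. In control mice it had 244 and 270.0 CPM in activated control libraries, against 84.2 and 85.3 CPM in rested control libraries. The lowest activated library was well above the highest rested one, and the log2 fold change was 1.58 in cKO cells (SE 0.061, adjusted p = 2.38e-10) and 1.60 in control cells (SE 0.074, adjusted p = 2.65e-09). Pag1, a membrane adaptor that recruits the inhibitory kinase CSK, fell: it had 84.3, 84.6 and 73.3 CPM in the activated cKO libraries, against 174, 169.7 and 169.6 CPM in the rested cKO libraries. Pag1 had 99.8 and 93.9 CPM in activated control libraries, against 172 and 172 CPM in rested control libraries. Rested libraries of both genotypes lay between 169.6 and 174 CPM, and the log2 fold change was -1.08 in cKO cells (SE 0.054, adjusted p = 1.89e-09) and -0.83 in control cells (SE 0.065, adjusted p = 2.26e-07).

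The other 3 of this role had small fold changes. Csk, whose kinase switches off LCK, averaged 213 ± 24.1 CPM in activated and 226 ± 4.93 CPM in rested cKO cells and 212 ± 24.7 CPM in activated and 230.3 ± 5.02 CPM in rested control cells. For this gene cKO mouse 3 was higher in its activated library and the other 4 mice in their rested one. Ptprc encodes CD45, which removes the inhibitory phosphate from LCK, and it was the most abundant member by CPM, with 2240.1 ± 102 CPM in activated and 2080.2 ± 118 CPM in rested cKO cells. It passed in control cells, where its log2 fold change was 0.22 (adjusted p = 0.0224), and in cKO cells it had 0.11 (adjusted p = 0.149). Ptpn22, a phosphatase that acts on LCK and ZAP70, likewise had 0.19 in control cells (adjusted p = 0.0447) and 0.11 in cKO cells (adjusted p = 0.143). Without control mouse 2 neither passed in control cells (adjusted p = 0.470 for Ptprc and 0.225 for Ptpn22). All 5 mice had higher Ptprc and higher Ptpn22 in the activated library.

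Of the 8 adaptors 3 rose and 5 fell in both genotypes. The largest change of any member was in Sh3bp2, which encodes the adaptor 3BP2. Sh3bp2 (chr5:34683182-34720985) had 93.8, 101 and 106 CPM in the activated cKO libraries, against 6.12, 6.54 and 6.40 CPM in the rested cKO libraries. In control mice it had 103 and 108 CPM in activated control libraries, against 5.02 and 4.66 CPM in rested control libraries. The lowest activated library thus had 93.8 CPM and the highest rested one 6.54 CPM. The fitted difference between the groups was 15.8-fold in cKO and 21.7-fold in control cells, a log2 fold change of 3.98 in cKO cells (SE 0.068, adjusted p = 1.61e-13) and 4.44 in control cells (SE 0.085, adjusted p = 9.44e-13).

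Grap2 encodes GADS, which joins SLP-76 to LAT, and it fell most of all members. Grap2 had 402, 489 and 375 CPM in the activated cKO libraries, against 1189.5, 1171 and 1244 CPM in the rested cKO libraries. It had 484 and 434 CPM in activated control libraries, against 1203 and 1293 CPM in rested control libraries. The highest activated library had 489 CPM and the lowest rested one 1171 CPM, and the log2 fold change was -1.51 in cKO cells (SE 0.087, adjusted p = 1.77e-08) and -1.45 in control cells (SE 0.11, adjusted p = 2.88e-07). The partners on either side of GADS split: Lcp2, which encodes SLP-76, rose by 0.88 in cKO and 0.85 in control cells, and Lat fell, with -0.63 in cKO and -0.74 in control cells. Themis, an adaptor needed for thymocyte selection, had -1.28 in cKO and -1.30 in control cells, and Skap1, which links the receptor to integrins, had -1.07 in cKO and -1.08 in control cells. Nck1, an adaptor to the actin cytoskeleton, had -0.67 in cKO and -0.66 in control cells, and Sh2d2a, which encodes the adaptor TSAd, rose by 0.38 in cKO and 0.55 in control cells. The adaptors' fold changes thus covered the whole range seen among the members.

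Promoter windows of the members that moved most are shown because genes of one pathway moved in opposite directions. RefSeq windows of 300 bases in the build GRCm38.p6, from 250 before to 50 after a gene's start, were found for 33 of the 39 members (48 windows, since some genes have several starts). They are printed 5′ to 3′ on the gene's own strand, and capitals mark each match, on either strand, to GGAAGT, the core bound by ETS-family factors.
Sh3bp2, window 1, chr5:34543115-34543414, plus strand: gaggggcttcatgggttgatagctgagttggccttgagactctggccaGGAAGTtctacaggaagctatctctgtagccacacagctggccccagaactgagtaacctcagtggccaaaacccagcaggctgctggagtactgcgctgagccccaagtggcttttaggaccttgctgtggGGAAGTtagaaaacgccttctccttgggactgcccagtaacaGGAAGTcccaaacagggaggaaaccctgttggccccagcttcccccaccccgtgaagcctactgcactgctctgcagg
Sh3bp2, window 2, chr5:34549326-34549625, plus strand: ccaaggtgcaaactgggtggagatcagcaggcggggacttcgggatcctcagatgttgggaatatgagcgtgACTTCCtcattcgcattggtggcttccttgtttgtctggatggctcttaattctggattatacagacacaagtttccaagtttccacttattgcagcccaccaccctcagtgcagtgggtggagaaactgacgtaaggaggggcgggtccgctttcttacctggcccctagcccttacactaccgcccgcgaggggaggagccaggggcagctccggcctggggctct
Cd5, window 1, chr19:10738925-10739224, minus strand: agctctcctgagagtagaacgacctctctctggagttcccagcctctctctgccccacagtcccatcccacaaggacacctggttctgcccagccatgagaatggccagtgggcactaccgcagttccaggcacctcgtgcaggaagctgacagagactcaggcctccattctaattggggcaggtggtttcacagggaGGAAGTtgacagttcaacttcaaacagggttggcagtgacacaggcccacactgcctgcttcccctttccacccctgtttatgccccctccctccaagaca
Ptpn6, window 1, chr6:124738660-124738959, minus strand: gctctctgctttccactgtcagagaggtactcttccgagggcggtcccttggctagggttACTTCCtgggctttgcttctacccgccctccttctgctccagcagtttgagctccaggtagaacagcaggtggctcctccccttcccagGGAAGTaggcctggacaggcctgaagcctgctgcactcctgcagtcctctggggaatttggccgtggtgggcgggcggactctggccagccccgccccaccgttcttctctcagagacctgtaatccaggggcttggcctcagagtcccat
Grap2, window 1, chr15:80623233-80623532, plus strand: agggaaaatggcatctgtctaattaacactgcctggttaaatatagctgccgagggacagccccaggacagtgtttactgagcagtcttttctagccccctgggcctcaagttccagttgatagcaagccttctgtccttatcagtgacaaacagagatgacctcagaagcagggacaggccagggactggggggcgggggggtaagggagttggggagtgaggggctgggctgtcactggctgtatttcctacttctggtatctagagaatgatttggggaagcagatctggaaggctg
The first Sh3bp2 window held 3 matches and the second 1, Cd5 held 1, Ptpn6 held 2 and Grap2 none.

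Of the 13 windows of the members that rose in both genotypes (9 genes), 46.2% held GGAAGT on either strand, as did 39.3% of the 28 windows of members that fell in both (20 genes) and 23.8% of all 32851 windows. This motif was taken up after a stricter ETS form had been looked at, CCGGAAG, which was in 7.69% of the windows of risen genes, 0% of those of fallen genes and 8.86% of all windows. The RUNX motif TGTGGT was in 7.69% of windows of risen genes, 17.9% of those of fallen genes and 16.8% of all windows. No window of either set held the AP-1 motif TGANTCA, which was in 7.81% of all windows, and the E-box CACGTG was in 7.69% of windows of risen genes, 7.14% of those of fallen genes and 7.15% of all windows. GGAAGT and CCGGAAG can overlap, as both hold GGAAG. A match here is a description of the letters and not evidence of binding.

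Among the 7 effector enzymes and signal carriers, the enzyme that makes diacylglycerol and a kinase that diacylglycerol activates fell most. Plcg1 encodes phospholipase C-γ1, which makes diacylglycerol and the calcium-releasing messenger IP3. It had 183, 211 and 176 CPM in the activated cKO libraries, against 487, 486 and 485 CPM in the rested cKO libraries. In controls it had 218 and 188 CPM in activated control libraries, against 491 and 504 CPM in rested control libraries. Rested libraries were nearly alike across both genotypes and all were above all activated ones, with a log2 fold change of -1.36 in cKO cells (SE 0.067, adjusted p = 1.81e-09) and -1.30 in control cells (SE 0.082, adjusted p = 3.46e-08). Prkcq encodes protein kinase C-θ, which diacylglycerol activates, and it had 190.4, 221 and 177 CPM in the activated cKO libraries, against 431, 442 and 439 CPM in the rested cKO libraries. It had 224 and 206 CPM in activated control libraries, against 436 and 457 CPM in rested control libraries. There was again no overlap, and the log2 fold change was -1.16 in cKO cells (SE 0.07, adjusted p = 9.84e-09) and -1.06 in control cells (SE 0.085, adjusted p = 2.83e-07).

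The carriers of the signal to NF-κB behind that kinase moved upward. Malt1, the protease of the complex, rose by 0.75 in cKO and 0.86 in control cells, and Bcl10, its bridging partner, by 0.29 in cKO and 0.21 in control cells. The 2 exchange factors for RAS and the one for RAC leaned downward. Sos1 fell by 0.56 in cKO and 0.48 in control cells on the log2 scale, and Vav1, the exchange factor for RAC, by 0.23 in cKO and 0.20 in control cells. Rasgrp1, the RAS activator that reads diacylglycerol, had -0.22 in cKO cells (adjusted p = 0.0156) and -0.079 in control cells (adjusted p = 0.470). Its activated and rested libraries overlapped in cKO cells, with 229.9, 264 and 249 CPM in activated against 255, 292 and 322 CPM in rested libraries, and without cKO mouse 3 the adjusted p was 0.168.

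The 6 negative regulators form 3 pairs of related genes, and in 2 of the pairs the members were called in opposite directions. Dgka and Dgkz encode kinases that remove diacylglycerol. Dgka had 618, 721 and 550.4 CPM in the activated cKO libraries, against 1641, 1576 and 1618 CPM in the rested cKO libraries. It had 731 and 664 CPM in activated control libraries, against 1577 and 1697 CPM in rested control libraries. Dgka libraries in the activated state were below those at rest in all 5 mice, with a log2 fold change of -1.36 in cKO cells (SE 0.08, adjusted p = 1.23e-08) and -1.23 in control cells (SE 0.098, adjusted p = 3.37e-07). Dgkz also fell, with -0.56 in cKO and -0.59 in control cells. Cbl and Cblb encode ubiquitin ligases that mark signalling proteins, and Cbl had 368, 343 and 309 CPM in the activated cKO libraries, against 619.5, 614 and 631 CPM in the rested cKO libraries. Cbl had 389.8 and 368 CPM in activated control libraries, against 649 and 603 CPM in rested control libraries. The states were apart, with a log2 fold change of -0.87 in cKO cells (SE 0.057, adjusted p = 2.07e-08) and -0.72 in control cells (SE 0.07, adjusted p = 1.39e-06). Cblb rose, by 0.65 in cKO and 0.61 in control cells. Ubash3a and Ubash3b encode the phosphatases STS-2 and STS-1, which act on ZAP70 and related kinases. Ubash3a had -0.60 in cKO and -0.59 in control cells, and Ubash3b 0.55 in cKO and 0.64 in control cells.

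The plot of single libraries shows 16 of these genes, Csk among them as the one called in neither genotype.

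**Figure D3:**
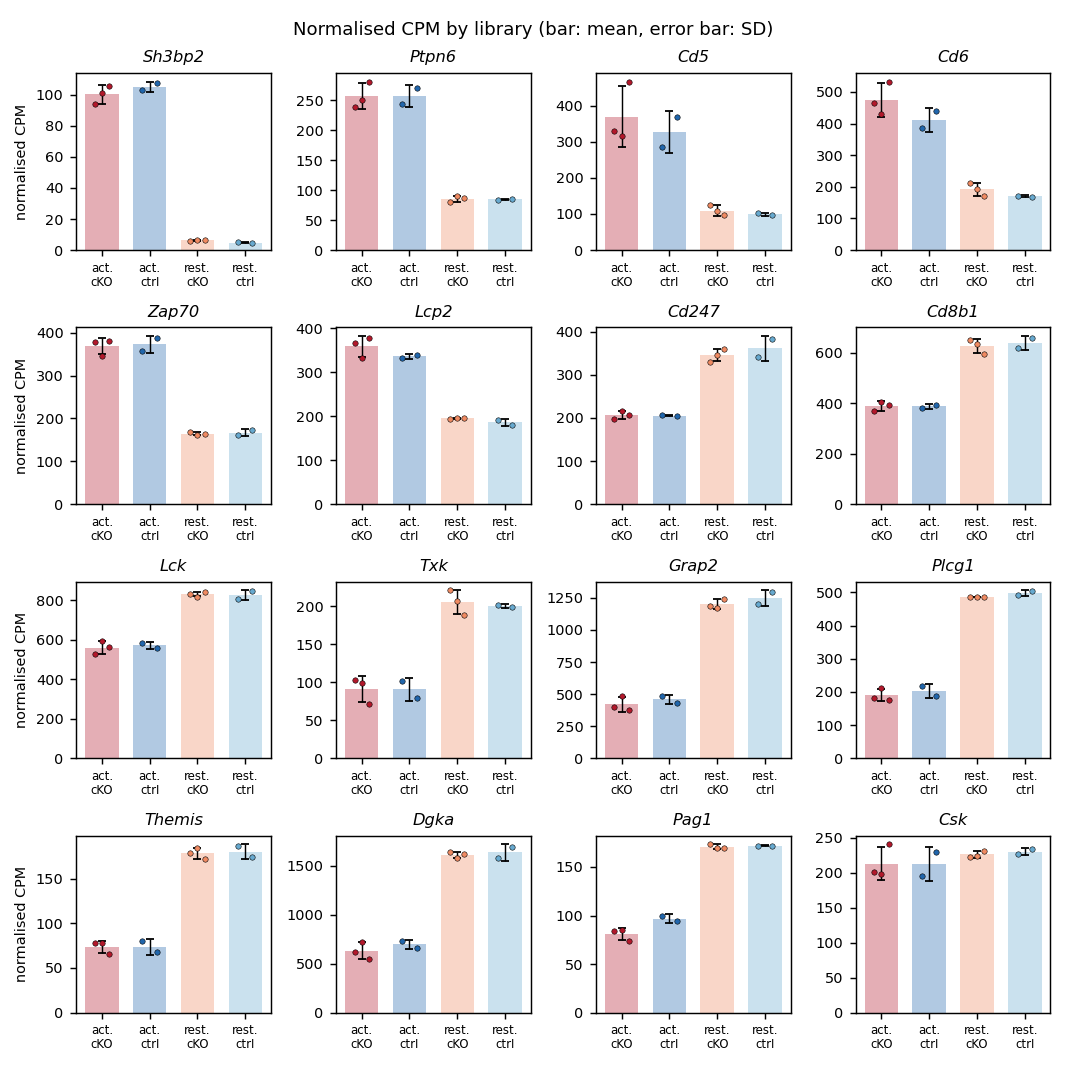
Normalised CPM of 16 genes in each library (points) by group, from left to right activated cKO (n = 3), activated control (n = 2), rested cKO (n = 3) and rested control (n = 2), with bars at the mean, error bars of 1 SD and axes from 0. Activated libraries of both genotypes stand together and apart from rested ones in every panel except Csk, where the 4 groups overlap, and in Pag1 the activated cKO points lie below the activated control points.

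Ratios of 2 related members within a library do not depend on library scaling, and 10 pairs were followed as ratios of FPKM. They are given as mean ± SD of 5 libraries in each state, with the log2 difference, activated minus rested, as mean ± SD over the 5 mice. Cd8b1 over Cd8a was 1.73 ± 0.101 in activated and 2.39 ± 0.103 in rested libraries, a log2 difference of -0.47 ± 0.077. It was 1.72, 1.84 and 1.60 in activated cKO and 1.83 and 1.68 in activated control libraries, against 2.46, 2.37 and 2.22 in rested cKO and 2.43 and 2.47 in rested control libraries. The ratio was lower in the activated than in the rested library of every mouse. Within the CD3 complex, Cd247 over Cd3e was 0.510 ± 0.0122 in activated and 0.683 ± 0.0496 in rested libraries (-0.42 ± 0.11), lower in all 5 mice. Cd3g over Cd3e differed by -0.079 ± 0.072, lower in all 5, and Cd3d over Cd3e by 0.11 ± 0.082, higher in 4 of 5. Both of these differences are near the size of their spread.

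Among the kinases, Fyn over Lck was 0.409 ± 0.0260 in activated and 0.238 ± 0.00743 in rested libraries (0.78 ± 0.10), and Txk over Lck was 0.0432 ± 0.00722 in activated and 0.0657 ± 0.00422 in rested libraries (-0.62 ± 0.15). Cbl over Cblb was 0.758 ± 0.0765 in activated and 2.06 ± 0.160 in rested libraries, a log2 difference of -1.45 ± 0.20: the gene with the higher FPKM was Cblb in each activated library and Cbl in each rested library. Ubash3b over Ubash3a was 0.668 ± 0.140 in activated and 0.291 ± 0.0398 in rested libraries (1.18 ± 0.17), so Ubash3a stayed the higher of the pair throughout. Dgkz over Dgka was 0.390 ± 0.0498 in activated and 0.233 ± 0.00628 in rested libraries (0.74 ± 0.21). Ptpn22 over Ptpn6 was 0.779 ± 0.126 in activated and 2.12 ± 0.295 in rested libraries (-1.45 ± 0.09), with Ptpn6 the higher in each activated library and Ptpn22 in each rested one. For the 9 pairs that differed one way in all 5 mice the exact two-sided sign-flip permutation test gave p = 0.0625, the smallest it can give with 5 mice (0.0694 after adjustment over the 10 pairs), and for Cd3d over Cd3e it gave 0.125, so these ratios are a description. The plot of ratios joins the 2 libraries of each mouse.

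**Figure D4:**
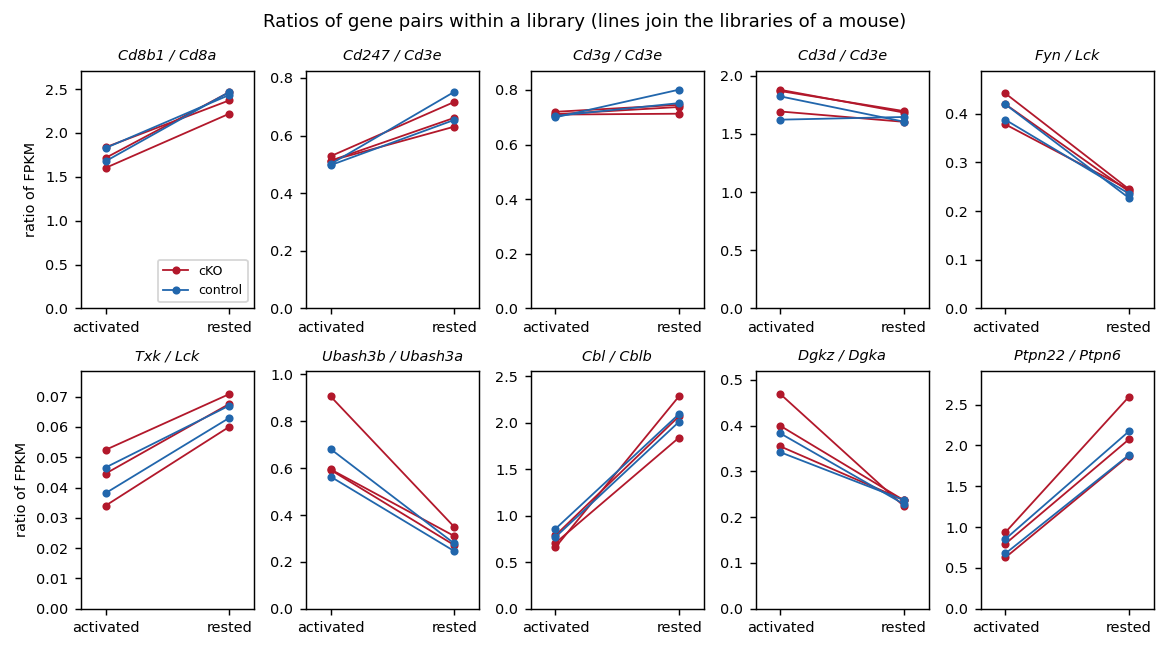
Ratio of FPKM of 10 gene pairs within a library (vertical axes from 0), activated on the left and rested on the right, with a line for each of 3 cKO (red) and 2 control (blue) mice. Lines of both genotypes run the same way in all pairs but Cd3d over Cd3e, and Cbl over Cblb stands between 0.661 and 0.860 in activated libraries, against 1.84 to 2.29 in rested ones.

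The size of the response varied between mice. Over the 35 members called in the same direction in both genotypes, cKO mouse 3 had the largest absolute log2 change of the cKO mice for 21 genes, cKO mouse 1 for 12 and cKO mouse 2 for 2. Of the 2 control mice, mouse 2 had the larger change for 28 and mouse 1 for 7. The median absolute log2 change of these 35 genes was 0.767 in cKO mouse 3, 0.751 in cKO mouse 1 and 0.673 in cKO mouse 2, and 0.807 in control mouse 2 and 0.717 in control mouse 1. The members were like other genes in this: of the 9663 genes called in both genotypes, 60.6% had their largest change in cKO mouse 3 among cKO mice and 74.0% in control mouse 2 among controls, beside 60.0% of these members in cKO mouse 3 and 80.0% in control mouse 2. The activation gene Il2ra, which encodes the high-affinity chain of the IL-2 receptor, had log2 changes of 7.49, 7.22 and 8.51 in cKO mice 1 to 3 and 7.80 and 8.80 in control mice 1 and 2. Mouse 3 of the cKO group and mouse 2 of the controls were the 2 females, and sex cannot be told apart here from whatever else the leading number of the mouse names marks.

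Between the genotypes no member passed the test. In activated cells 0 of 39 members passed in cKO against control by the quasi-likelihood test of edgeR after Benjamini-Hochberg adjustment (4 at an unadjusted p below 0.05, as were 1142 of the 18966 genes tested), and in rested cells 0 of 39 passed (1 at an unadjusted p below 0.05, as were 783 of all genes tested). Of all genes tested 0.0422% were called in each of these comparisons. DESeq2 and limma also called 0 members in each. The estimates were small: the absolute log2 fold change was below 0.25 for 38 members in activated and for 37 in rested cells, with a median SE of 0.064 in activated and 0.065 in rested cells. For 37 members in activated and 35 in rested cells the whole 95% interval lay within 0.5 on the log2 scale of no difference, and the outermost bounds over all members were -0.48 and 0.65 in activated and -0.51 and 0.66 in rested cells. Groups did not overlap for 3 of 39 members in activated cells, 7.69% against 17.1% of all genes tested, and for 9 of 39 in rested cells, 23.1% against 17.7%.

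The activated-cell member with the smallest p was Pag1, the adaptor that recruits CSK. It had 84.3, 84.6 and 73.3 CPM in activated cKO libraries, against 99.8 and 93.9 CPM in activated control libraries. Each cKO library was below each control library, and the log2 fold change was -0.28 (SE 0.06, 95% interval -0.41 to -0.15, unadjusted p = 4.63e-04, adjusted p = 0.482). Without a filter on low counts Pag1 passed (adjusted p = 0.0212), while under the other alternatives the adjusted p lay between 0.0802 and 1. Without that filter 211 of 32684 genes were called in activated cells, against 8 of 18966 with it. In rested cells Pag1 differed by -0.022 (95% interval -0.15 to 0.11). Next was the RAS exchange factor Sos1, with 71.7, 70.1 and 66.9 CPM in activated cKO libraries, against 82.9 and 74.7 CPM in activated control libraries. Those groups also did not overlap, and Sos1 had a log2 fold change of -0.19 (95% interval -0.32 to -0.047, adjusted p = 0.737), which was -0.10 without control mouse 1 and -0.25 without control mouse 2. The ubiquitin ligase gene Cbl had 368, 343 and 309 CPM in activated cKO libraries, against 389.8 and 368 CPM in activated control libraries, with 1 cKO library inside the control range. Its log2 fold change was -0.17 (95% interval -0.31 to -0.035, adjusted p = 0.769).

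In rested cells the smallest p belonged to the adaptor gene Sh3bp2. It had 6.12, 6.54 and 6.40 CPM in rested cKO libraries, against 5.02 and 4.66 CPM in rested control libraries. All 3 cKO values were above both control values, and the log2 fold change was 0.40 (SE 0.082, 95% interval 0.22 to 0.58, unadjusted p = 3.22e-04, adjusted p = 0.339). Without a filter on low counts Sh3bp2 passed (adjusted p = 0.0131), while under the other alternatives the adjusted p lay between 0.149 and 1. Without that filter 204 of 32684 genes were called in rested cells, against 8 of 18966 with it. In activated cells the Sh3bp2 difference was -0.062 (95% interval -0.20 to 0.076). Malt1, the NF-κB pathway protease, had 121, 125 and 124 CPM in rested cKO libraries, against 118 and 107 CPM in rested control libraries, a log2 fold change of 0.13 (95% interval -0.0068 to 0.26, adjusted p = 1.00). For Malt1 it was 0.045 without control mouse 2, 0.057 without cKO mouse 3 and 0.20 without control mouse 1. Ubash3b, which encodes the phosphatase STS-1, had 20.7, 16.9 and 19.3 CPM in rested cKO libraries, against 15.3 and 16.5 CPM in rested control libraries, and 0.31 on the log2 scale (95% interval -0.033 to 0.66, adjusted p = 1.00). For Ubash3b it was 0.17 without control mouse 2, 0.18 without cKO mouse 1 and 0.46 without control mouse 1. In both genes the cKO libraries lay just above the control ones. The sum of 10 markers of NK and innate-like lymphocytes also stood higher in cKO cells. It was 5.15 to 8.0 CPM in activated cKO against 2.81 to 4.93 CPM in activated control libraries. At rest it was 5.60 to 7.59 CPM in cKO against 3.14 to 4.58 CPM in control libraries. The single genes did not all go this way. Klre1 was higher in each cKO library in both states, and Tyrobp and Zbtb16 overlapped between the genotypes. Rested Fcer1g was lower in cKO, at 0.442 to 0.482 CPM against 0.566 and 0.798 CPM in control libraries. Ncr1, a defining NK cell marker, had no more than 0.0690 CPM in any library. The part of these markers in the genotype differences was not tested.

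**Figure D5:**
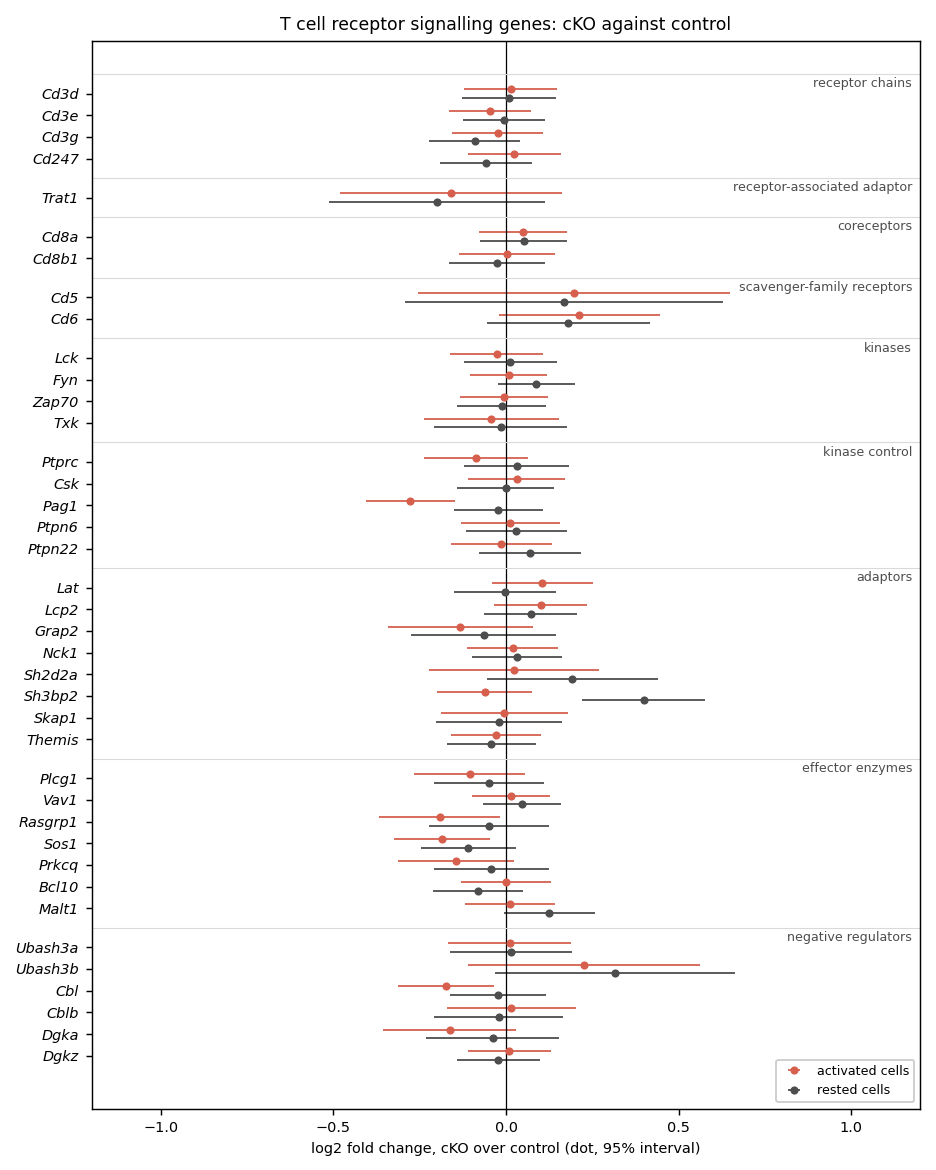
Log2 fold change of cKO over control for each gene (horizontal), grouped by role, with the 95% interval, for activated cells (red) above rested cells (grey). Most values sit within 0.25 of 0, Pag1 in activated cells lies at -0.28 and Sh3bp2 in rested cells at 0.40, and neither passed the adjusted threshold.

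The response to activation did not pass a test of difference between the genotypes for any member. The interaction, the activation effect in cKO minus that in control cells, called 0 of 39 members by edgeR's quasi-likelihood test, 2 at an unadjusted p below 0.05 (519 of the 18966 genes tested), and 0% of all genes tested, and DESeq2 and limma called 0 members. It was within 0.25 of 0 for 37 members, the 95% interval lay within 0.5 for 35, and the outermost bounds were -0.68 and 0.67. Sh3bp2 had -0.46 (SE 0.10, 95% interval -0.68 to -0.24, unadjusted p = 6.54e-04, adjusted p = 1.00), the activation effect being 3.98 in cKO and 4.44 in control cells. Pag1 had -0.26 (95% interval -0.44 to -0.074, adjusted p = 1.00), and Cbl -0.15 (95% interval -0.34 to 0.046, adjusted p = 1.00), which was -0.071 without cKO mouse 3. For the 3 genes called in 1 genotype only, the interaction was -0.12 for Ptprc, -0.082 for Ptpn22 and -0.14 for Rasgrp1, each with a 95% interval that spans 0.

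A wider list of 63 further genes of the pathway also held more falls than rises. With activation 12 of them rose and 35 fell in cKO cells, 74.6% of the list beside 63.4% of all genes tested, and 11 rose and 34 fell in control cells, 71.4% of the list beside 56.1% of all genes tested. The lowest were Rasgrp2, an activator of RAP1, with -2.02 in cKO and -1.85 in control cells on the log2 scale, the adaptor Sla2 with -1.58 in cKO and -1.52 in control cells, the GTPase regulator Arhgap45 with -1.53 in cKO and -1.46 in control cells, and the calcium channel gene Orai2 with -1.48 in cKO and -1.43 in control cells. The highest were Sla, which encodes the adaptor SLAP, with 2.75 in cKO and 2.99 in control cells, the phosphatase gene Ptpn7 with 1.72 in cKO and 1.77 in control cells, Tespa1, a gene needed for thymocyte selection, with 1.38 in cKO and 1.60 in control cells, and the calcium channel gene Orai1 with 1.17 in cKO and 1.09 in control cells. Among these extremes Sla and Orai1 were higher and their relatives Sla2 and Orai2 lower, but taking genes from both ends favours such pairs. Other related genes went either way. Itpr1, Itpr2 and Itpr3 were all lower in both genotypes, as were Sos2 with the member Sos1 and Nck2 with the member Nck1. Stim1 was lower and Stim2 higher. Between genotypes 0 of the 63 were called in activated cells, in rested cells or in the interaction by edgeR's quasi-likelihood test. DESeq2 called 0 as well. At an unadjusted p below 0.05 there were 7 of the 63 in activated cells, beside 1142 of the 18966 genes tested. In rested cells there was 1, beside 783 of all genes tested, and in the interaction 1, beside 519.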

How the data were processed

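The table holds 10 libraries of CD8+ T cells from mouse spleen. The labels' protocols name a stranded mRNA library kit. The submitters' processing notes name the build mm39 and, without versions, Subread, FastQC and MultiQC. The annotation release and the use of strand in counting were not stated there. Gene counts were deposited as whole numbers and are not normalized. FPKM as deposited by the authors is the count scaled by the column sum and by a length of 1 base more than listed, to a relative deviation of 9.4e-07. Coordinates come from the deposited table, and promoter windows from RefSeq (GRCm38.p6), matched by symbol.

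The count model was edgeR 4.0.16 in R 4.3.3. It used TMM factors, genes kept by filterByExpr on the groups, robust quasi-likelihood dispersion, and 1 design for all libraries with a mean per group and a term for sex (5 residual degrees of freedom, median prior 7.95, biological coefficient of variation 9.14%). P-values were adjusted by Benjamini-Hochberg within each comparison, with 0.05 as the threshold. The SE is the absolute log2 fold change over the root of the F statistic, and the 95% interval uses its t distribution. Ratios were tested by exact sign flips over mice. The model was tested on simulated data. Alternatives used DESeq2 1.42.0 and limma 3.58.1, and figures Python 3.11.15.

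Members were given in full where they were 1 of the 2 in their role with the largest absolute log2 fold change of activation in control cells that passed in both genotypes, or 1 of the 3 with the smallest p in a genotype comparison or the interaction. From the wider pathway list, the 4 highest and 4 lowest were named. The members, lists and rules were chosen with earlier results of these data known. The activated and the rested library of a mouse are a pair, since both come from 1 animal. Their departures from the group means had correlations of 0.255, 0.146 and 0.334 in cKO mice 1 to 3 and 0.356 in each control mouse. With sex removed, as in the model, they were 0.0468, -0.0237 and -0.422 in cKO mice 1 to 3 and -0.182 in each control mouse, and limma's consensus correlation within a mouse was -0.135. The 2 control mice mirror each other around their group mean, so they share a value by construction. The sex term is shared by both states, which pushes the correlations with sex removed downward. Those values therefore do not measure the pairing alone. No pair of replicate libraries agreed within sampling noise (8.55 to 41.7 for chi-square over its degrees of freedom). Floors cover counting error only.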

Additional observations from a re-analysis of the deposited data

How the results depend on the processing

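The 39 genes were recomputed with other scalings, filters, tools and covariates and without each mouse, and no direction past the threshold reversed. Over all these settings 34 of 39 members kept their call in activated against rested cKO cells and 29 of 39 in control cells. Without a low-count filter 1 member was called higher in cKO against control rested cells (Sh3bp2, log2 fold change 0.39, adjusted p = 0.0131) and 1 lower in activated cells (Pag1, -0.27, adjusted p = 0.0212). Without that filter 204 of 32684 genes were called in rested and 211 in activated cells, against 8 of 18966 in each with it. The cause was not tested. Leaving out each mouse in turn gave between 8 and 14 members higher in activated against rested control cells, the 8 being without control mouse 2, where the lone control mouse left is taken to vary as the other groups do. With mouse as a replicate block, fixed in edgeR or random in limma, 12 members were higher and 24 lower in cKO cells and 14 higher and 23 lower in control cells, and no call of a member changed. With library totals in place of TMM, Ptprc and Ptpn22 passed in cKO cells and Rasgrp1 did not (adjusted p = 0.0862), and without the sex term Ptpn22, Bcl10 and Ubash3b did not pass in control cells. With 2 control mice the median SE of a genotype difference was 0.064 in activated and 0.065 in rested cells on the log2 scale, which sets what this design can show.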
